A study of Mus musculus with 4 samples.

Results

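The regions described here are 2644 open chromatin peaks that lay just past the 3′ ends of protein-coding genes in mouse bone mesenchymal stem cells (MSCs). They were taken from a table of 128055 ATAC-seq peaks by position and by the conditions that the peak caller assigned from these same libraries. A peak was included when it was autosomal, was assigned by the peak caller to both oxygen conditions, lay outside every protein-coding gene body of GENCODE release M21, began within 5 kb downstream of a protein-coding gene end, and was over 10 kb from any protein-coding start site. Of 116593 autosomal peaks shared by both conditions, 2644 met this rule, and they are called gene-end peaks below. The 40347 other shared autosomal peaks outside gene bodies and over 10 kb from a start site served as the comparison and are called other intergenic peaks.

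In ATAC-seq the Tn5 transposase inserts adapters into accessible DNA, so that the number of reads over a site follows how open it is. To ask how oxygen alters the chromatin of MSCs, the study compared a Hypoxia group (2% O2) with a Normoxia group (21% O2), with 2 libraries per group. Per the study's methods the cells came from the hind limb bones of C57BL6/N mice aged 3 to 5 months and were grown out in hypoxia. They were sorted as CD45-/Ter-119-/Sca-1+/CD140a+ cells and then split. A part was kept in hypoxia and a part moved to normoxia, for a fixed number of days. The labels instead describe culture in either oxygen level before the sort. The methods and the labels thus differ on whether the normoxia cells began at low oxygen. Whether the time in normoxia given in the methods holds is not settled either. No allele or agent other than oxygen is named for either group, and the number of animals behind each library is not stated in the sources used here.

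RNA polymerase II runs past the annotated end of a gene before it releases the template, and the DNA just downstream of the cleavage site can be nucleosome-poor. The same stretch can also hold enhancers, insulator sites bound by CTCF, or starts of noncoding RNAs, some of them antisense to the gene. A peak there is therefore a mixed class by position and says nothing by itself on which gene it serves.

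Before the results, the libraries themselves were checked. Library totals, which rest on an assumed scale of the deposited values, ran from 26680936 to 29965523 reads. The gene-end peaks held 0.871% and 0.928% of these reads in hypoxia and 0.594% and 0.656% in normoxia. This fall was not particular to them. All shared autosomal peaks held 48.1% and 51.9% in hypoxia against 30.5% and 34.6% in normoxia. The other intergenic peaks held 11.4% and 12.7% against 7.86% and 8.82%. Promoter peaks were present for 7 of 8 mesenchymal markers and absent for Lepr. They ranged from Eng, at percentile 15.8 of all promoter peaks by mean value, to Pdgfra at 93.1. The sort marker gene Ly6a was at 37.4. The summed value of the 7 peaks was 980 and 995 (hypoxia) and 542 and 587 (normoxia) as deposited. Eng did not follow this fall, at 28.3 and 17.3 in hypoxia against 23.2 and 31.4 in normoxia. The others were lower in both normoxia libraries. Of 6 blood markers 1 had a promoter peak, Spi1, with values of 10.2 to 14.9 in hypoxia and 7.87 to 13.01 in normoxia, and the pan-leukocyte gene Ptprc had none. Of 4 endothelial markers 2 had one, with sums of 33.3 to 38.4 and 23.2 to 36.7, and of 2 epithelial markers 1 had one, with sums of 9.20 to 9.86 and 4.00 to 7.12. The part of other cell types in the results was not tested. In bulk libraries, fewer cells with an open site and a site less open in each cell cannot be told apart.

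The sequences below show what such peaks contain. They are the central 300 bases of the strongest gene-end peak (past Zeb2), of the one most clearly lower in normoxia (past Prss12) and of the one most clearly higher (past Cnot4), read from GRCm38, the build of the peak table, 5′ to 3′ on the strand of the gene whose end they follow. Capitals mark a match to any of 8 short motifs searched on both strands: the CTCF core CNAGGGGGC, AP-1 TGACTCA, TEAD GGAATG, RUNX TGTGGT, NF-Y CCAAT, the GC box GGGCGG, the HIF core ACGTG and the polyadenylation signal AATAAA.
Zeb2 (chr2:44978051-44978350, minus strand): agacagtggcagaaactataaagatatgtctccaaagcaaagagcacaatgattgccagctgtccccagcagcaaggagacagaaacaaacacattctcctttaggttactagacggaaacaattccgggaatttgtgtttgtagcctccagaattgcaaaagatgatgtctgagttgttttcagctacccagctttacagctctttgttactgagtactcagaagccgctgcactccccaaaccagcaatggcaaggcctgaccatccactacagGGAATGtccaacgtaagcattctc
Prss12 (chr3:123508701-123509000, plus strand): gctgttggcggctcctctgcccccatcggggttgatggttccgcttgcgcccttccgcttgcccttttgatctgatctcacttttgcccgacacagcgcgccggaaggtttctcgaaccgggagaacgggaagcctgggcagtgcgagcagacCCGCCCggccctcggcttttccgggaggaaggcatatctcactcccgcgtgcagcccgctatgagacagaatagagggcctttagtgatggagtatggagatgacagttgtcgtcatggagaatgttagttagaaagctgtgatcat
Cnot4 (chr6:35018001-35018300, minus strand): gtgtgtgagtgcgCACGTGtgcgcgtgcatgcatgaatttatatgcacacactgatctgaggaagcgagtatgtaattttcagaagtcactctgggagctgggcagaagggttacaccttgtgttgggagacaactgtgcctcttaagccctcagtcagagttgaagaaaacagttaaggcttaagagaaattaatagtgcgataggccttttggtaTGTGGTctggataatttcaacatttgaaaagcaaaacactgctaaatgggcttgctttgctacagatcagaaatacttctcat
The Zeb2 sequence held 1 match, to TEAD. The Prss12 sequence held a GC box, and the peak it was taken from overlaps the noncoding snoRNA host gene Snhg8, its start included, and Snora24, both on the opposite strand. The Cnot4 sequence held a RUNX match and a HIF core read on both strands of the same 6 bases.

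A match to the CTCF core was found in the central 300 bases of 43 gene-end peaks. CTCF is the zinc finger protein that marks insulators and loop anchors, and its match is shown in capitals within 60 bases of each of the 5 strongest such peaks outside RefSeq gene bodies.
Cmtm6 (chr9:114752933-114752992, plus strand): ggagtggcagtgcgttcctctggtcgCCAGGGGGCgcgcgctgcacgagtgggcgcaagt
Reep3 (chr10:67003428-67003487, minus strand): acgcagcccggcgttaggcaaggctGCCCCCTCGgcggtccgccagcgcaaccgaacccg
Fbxo34 (chr14:47534050-47534109, plus strand): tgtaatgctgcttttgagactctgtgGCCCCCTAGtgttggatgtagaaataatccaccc
Ttc39b (chr4:83215891-83215950, minus strand): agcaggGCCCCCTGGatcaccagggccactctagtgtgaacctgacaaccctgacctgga
Rdh8 (chr9:20831141-20831200, plus strand): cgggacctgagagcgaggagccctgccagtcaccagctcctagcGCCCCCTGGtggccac
These 5 peaks, chosen for their strength, had mean deposited values of 142, 118, 104, 83.4 and 55.4, while the 43 with a match had a median of 9.16 and the gene-end peaks without one of 15.6. The match lay on either strand of the gene.

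The gene-end peaks followed the ends of 2303 genes. One peak was found past 1996 of them, 2 past 279, 3 past 23, 4 past 4 genes and 5 past Itga1, the integrin alpha-1 chain that binds collagen. They were densest near the gene, with 588 peaks in the first kilobase, 556, 530 and 486 in the next ones, and 484 between 4 and 5 kb, where a peak was placed by its edge nearest the gene end. To allow for how much sequence was available, the share of eligible bases inside shared peaks was computed, where eligible means outside protein-coding genes and over 10 kb from a start site. The share was 12.2% in the first kilobase, 15.98% from 3 to 4 kb, 15.2% from 4 to 5 kb, 11.0% from 5 to 10 kb, 6.80% from 20 to 50 kb and 3.49% beyond 50 kb. Open chromatin thus covered more of the sequence within 5 kb of a gene end than of the sequence farther away, with its highest share some kilobases past the end and not at it. These shares are a description of 1 genome and were not tested.

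**Figure D1:**
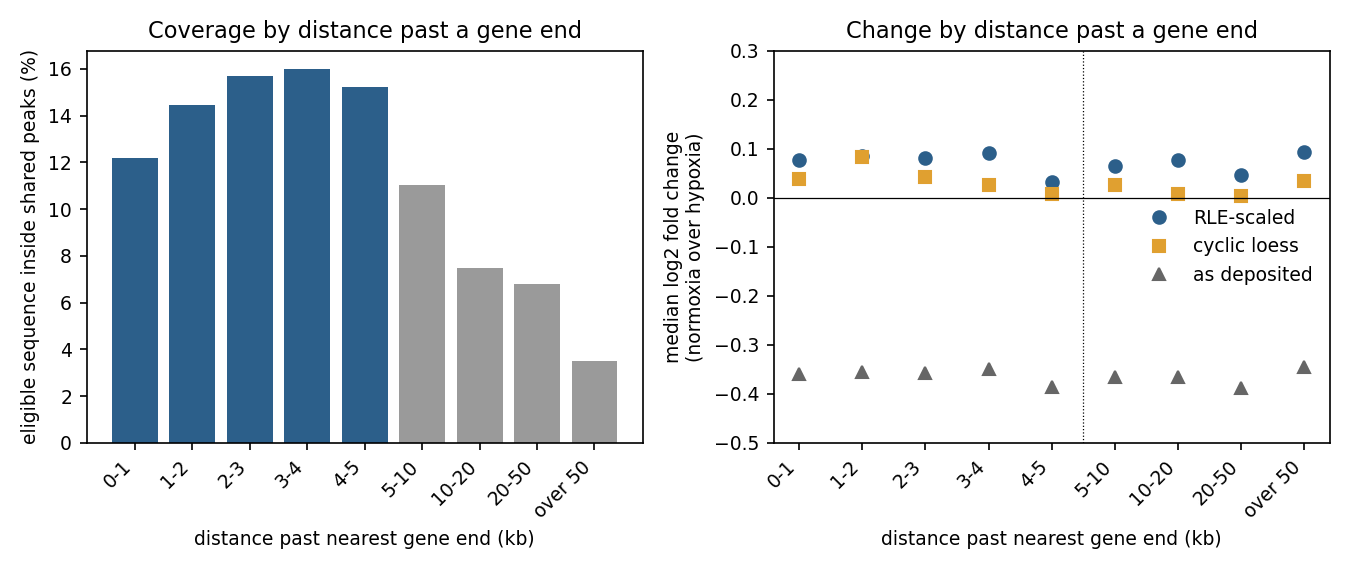
Left, percent of eligible sequence (outside protein-coding genes, over 10 kb from a start site) that lies inside shared peaks, by distance past the nearest gene end in kb; blue bars are within 5 kb. Right, median log2 fold change of peaks in the same bins under 3 scalings, with the dotted line at 5 kb. Coverage ran from 12.2% to 15.98% within 5 kb and fell to 3.49% beyond 50 kb, while the median fold change stayed between 0.033 and 0.093 after RLE scaling.

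The gene-end peaks were somewhat stronger and wider than other intergenic peaks. The deposited value of a peak is a read number scaled to the library total and not divided by width, so wide peaks have high values. Its mean over the 4 libraries had a median of 15.5 in gene-end peaks, 13.4 in other intergenic peaks and 15.9 in all shared autosomal peaks. Median widths were 1200, 1000 and 1100 bp. Median GC content was 46.5%, 44.4% and 46.0%, and repeat-masked sequence made up a median of 17.4% of a gene-end peak against 14.2% of an other intergenic peak. Of the gene-end peaks, 1215 (46.0%) lay between converging gene ends, so that the next gene on the far side also ended toward the peak, against 19.9% of other intergenic peaks. The rule favours this arrangement, since it asks for a nearby end and no nearby start.

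Noncoding genes overlapped 264 gene-end peaks (9.98%), against 18.3% of other intergenic peaks of equal mean value and width. A noncoding gene start lay within 1 kb of 156 gene-end peaks (5.90%), against 5.35% of the matched peaks. Those 156 had a median value of 36.3, against 15.1 for the remaining 2488, and 10 of them (6.41%) were called lower in normoxia and 0 higher by the limma test described below. Among other intergenic peaks as near to a noncoding start 6.94% were called lower, and 4.57% of all peaks of the table were.

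Motif content was compared with other intergenic peaks in the same strata of mean value and width. The CTCF core was found in 1.63% of gene-end peaks against 0.899% of matched peaks, and the HIF core in 15.2% against 13.7%. AP-1, the site of Fos and Jun dimers that is common in fibroblast enhancers, was found in 13.6% against 15.1%, and the polyadenylation signal in 26.5% against 30.3%. The shares were 21.1% and 22.8% for TEAD, 26.6% and 26.7% for RUNX, 35.0% and 35.5% for NF-Y, and 5.18% and 5.03% for the GC box. Over all shared autosomal peaks the shares were 1.28% for CTCF, 15.01% for HIF, 15.8% for AP-1, 27.0% for the polyadenylation signal, 21.7% for TEAD, 26.6% for RUNX, 33.3% for NF-Y and 9.80% for the GC box. By distance, the AP-1 share was 12.8% in the first kilobase, 13.2% from 4 to 5 kb, 14.9% from 5 to 10 kb and 19.7% beyond 50 kb. The CTCF core share was 1.19% in the first kilobase, 1.86% from 4 to 5 kb and 1.71% from 5 to 10 kb. It was 1.36% from 10 to 20 kb and 0.869% beyond 50 kb, so it did not drop at the 5 kb limit. GC content was not part of the matching. These shares describe letters in a window and were not tested.

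The comparison of oxygen levels depended on how libraries were brought to a common scale. As deposited, the median value of a gene-end peak was 17.0 and 17.3 under hypoxia against 13.5 and 14.0 under normoxia, so both normoxia libraries were below both hypoxia libraries. The main analysis divided each library by a relative log expression (RLE) size factor, which centres the change of the typical peak of the whole table at 0. The size factors were 1.13 (Hypoxia 1), 1.23 (Hypoxia 2), 0.810 (Normoxia 1) and 0.886 (Normoxia 2). A fold change is the normoxia mean minus the hypoxia mean of log2(value + 1), and the added 1 makes the change of weak peaks look smaller than it is. On that scale the median change of the gene-end peaks was 0.077 after RLE scaling, -0.36 as deposited and 0.34 with equal totals over peaks, and the median over all peaks was -0.0040, -0.44 and 0.26. The direction of the median gene-end peak was therefore set by the scaling. The median of other intergenic peaks was 0.083, -0.36 and 0.35 in turn.

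The change of gene-end peaks differed from that of other intergenic peaks of equal strength by less than the spread between libraries. Per library, the level of each gene-end peak was set against the median of other intergenic peaks in the same stratum of mean value and width. The median of this difference was 0.019 (Hypoxia 1), -0.037 (Hypoxia 2), -0.026 (Normoxia 1) and -0.022 (Normoxia 2), and both normoxia values fell between the hypoxia values. Normoxia minus hypoxia was -0.015, with a pooled SD of 0.028 between libraries (two-sided exact permutation test, n = 2 against 2, p = 1). Leaving out each library in turn gave -0.042 to 0.013, with 0.013 without Hypoxia 1, so the sign was not fixed by these libraries. The median level of gene-end peaks itself was 4.00 and 3.92 in hypoxia against 4.14 and 4.07 in normoxia after RLE scaling, a difference of 0.15 with a pooled SD of 0.053. Its exact permutation p of 0.333 is the smallest that 2 against 2 libraries can give, so this test cannot reach 0.05, and as deposited the difference was -0.30.

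**Figure D2:**
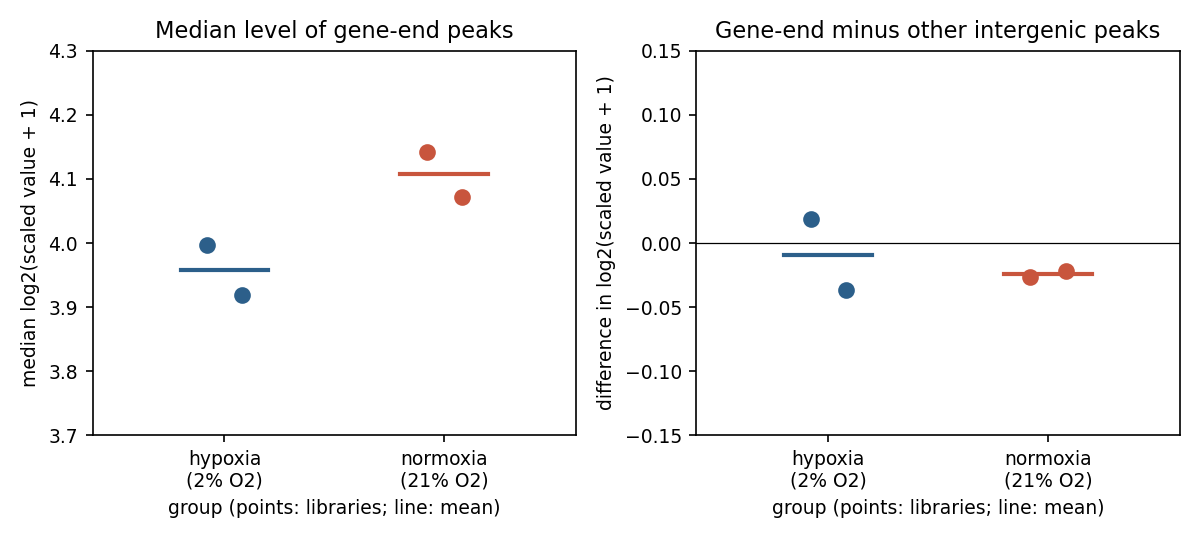
Left, median log2(RLE-scaled value + 1) of gene-end peaks in each library. Right, median difference between gene-end peaks and other intergenic peaks of equal mean value and width. Points are the 2 libraries of each group and lines their mean; the normoxia libraries lie above the hypoxia libraries on the left and between them on the right.

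Peaks that changed one by one were few. With limma at a false discovery rate (FDR) under 0.01, 59 gene-end peaks (2.23%) were lower in normoxia, against 4.57% of all peaks of the table, and 31 (1.17%) were higher, against 1.77% of all peaks. Among other intergenic peaks of equal mean value and width 2.84% were lower and 2.28% higher. These passed the same filter on both conditions. The table of all peaks also holds peaks not assigned to both, so its shares are not on equal terms. The scaled values of the groups did not overlap in 549 gene-end peaks that were lower (20.8%, background 29.6%) and in 824 that were higher (31.2%, background 27.4%). Among other intergenic peaks of equal mean value and width these shares were 22.3% and 32.3%, near those of the gene-end peaks. At an unadjusted p under 0.05 limma gave 255 lower and 348 higher. Without Hypoxia 1, without Hypoxia 2, or without trend and robust estimation, limma made 0 calls over the table at this FDR, so each limma call named below was lost there. As deposited, without RLE scaling, 464 were called lower and 3 higher, and with equal totals 11 and 191, so the split between directions also followed the scaling. The whole table moved too. Of its 128055 peaks, 31230 were called in either direction as deposited and 9829 with equal totals, against 8118 in the main fit.

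Strong peaks made up most of the lower calls. Cut into 5 equal groups by mean value, the gene-end peaks held 0, 0, 1, 8 and 50 lower calls from the weakest to the strongest group, and 3, 7, 6, 10 and 5 higher calls. The median fold change was 0.15, 0.20, 0.14, 0.055 and -0.14 in turn. In other intergenic peaks of the same value ranges the medians were 0.21, 0.25, 0.14, -0.0032 and -0.21, and 13.6% of the strongest range were called lower, against 9.45% of the gene-end peaks there. A scaling that removes a trend with strength, cyclic loess, gave a median of 0.066 in the strongest group and left 19 lower and 38 higher calls.

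**Figure D3:**
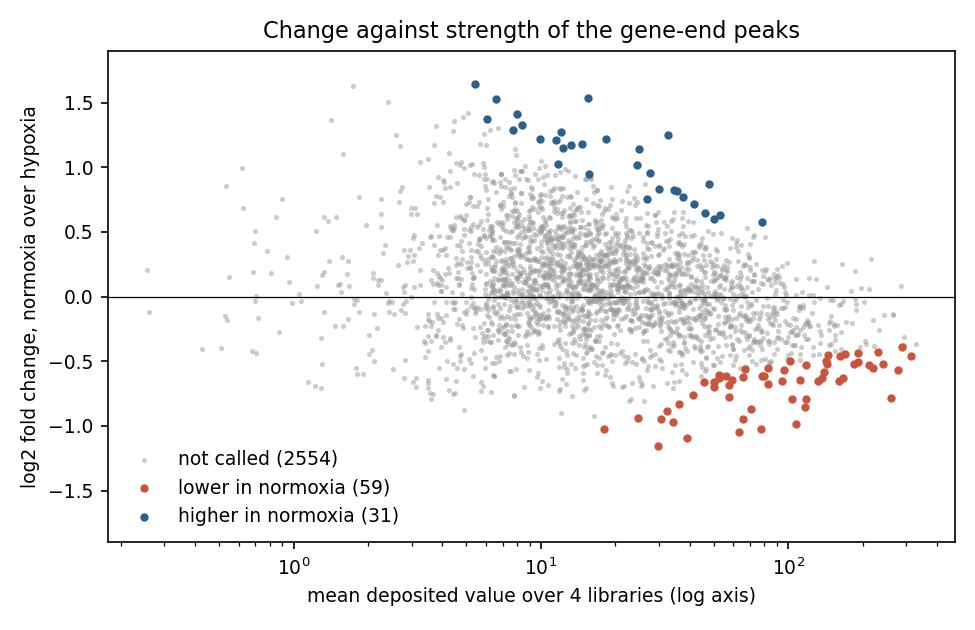
Each point is a gene-end peak, with its mean deposited value over 4 libraries on a log axis and its log2 fold change after RLE scaling; colours mark the 59 peaks called lower and the 31 called higher by limma at an FDR under 0.01. Of the lower calls 50 belong to the strongest of 5 equal groups by value, while the higher calls are spread over all 5.

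The 59 lower peaks lay past 57 genes and had a median value of 94.4, a median width of 2500 bp and a median fold change of -0.63, from -1.15 to -0.39. They changed over 2-fold in 5 cases. All 59 were also called as deposited and by edgeR on the recovered reads, 18 also under cyclic loess and 11 also with equal totals. As deposited the median over all peaks was -0.44, which favours lower calls, so that overlap is no independent check.

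The peak past Prss12, which encodes the serine protease neurotrypsin, lay at chr3:123507801-123509900, 1204 bp past the gene end, and overlapped Snhg8. Its deposited value was 351 and 380 in the hypoxia libraries against 135 and 171 in normoxia. Both normoxia values were far below both hypoxia values as deposited, with a fold change of -1.26. The strongest of the 5 groups of gene-end peaks had a median of -0.62 on that scale. After RLE scaling the Prss12 fold change was -0.78 (SE 0.105, limma adjusted p = 1.04e-05). The peak past Ptger2, a prostaglandin E2 receptor, began 181 bp past the gene end at chr14:45004001-45007400 and overlapped the antisense gene Gm17173, its start included. Its values were 140 and 175 (hypoxia) and 50.6 and 62.7 (normoxia), a fold change of -0.99 (SE 0.133, limma adjusted p = 1.09e-05).

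Rasgef1b encodes an exchange factor for Ras-family GTPases that is induced by inflammatory signals. Its gene-end peak (chr5:99213901-99215100) was at 104 and 126 under hypoxia against 35.6 and 44.7 under normoxia, a fold change of -1.03 (SE 0.144, limma adjusted p = 1.99e-05). Emp1, which encodes an epithelial membrane protein of the tetraspan family, had 3 gene-end peaks, of which the middle one (chr6:135384501-135386400) was at 97.3 and 91.1 in hypoxia against 33.4 and 31.4 in normoxia, a fold change of -1.04 (SE 0.154, limma adjusted p = 4.08e-05). The one farther out, 3528 bp past the end, was also lower (-0.95), while the one nearest the gene was a 100 bp peak with a mean value of 2.54 that was not called. The Emp1 promoter peak was lower as well (-0.71, limma adjusted p = 8.53e-07). The peak past Fhdc1, a formin that links actin and microtubules (chr3:84434801-84439800), was at 164 and 171 in the hypoxia libraries against 66.3 and 72.1 in normoxia, a fold change of -0.79 (SE 0.124, limma adjusted p = 8.77e-05).

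These 5 peaks were picked for a low p and groups that do not overlap. They were also called as deposited, with equal totals and under cyclic loess, where the Prss12 fold change shrank to -0.39 and that of Fhdc1 to -0.52. Other genes past which a peak was lower, picked here after their values were seen, include Lmna, the gene of the nuclear lamins A and C, with 2 such peaks (-0.94 and -0.66), and Cidea, a lipid droplet protein of fat cells (-0.65). Also among them were Ccdc80, a secreted matrix protein (-0.77), Amotl2, an angiomotin of the Hippo pathway (-1.10), Fzd6, a Wnt receptor (-0.63), Anxa2, a calcium-dependent membrane binder (-0.50), and Npr1, a natriuretic peptide receptor (-0.80).

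The 31 higher peaks lay past 31 genes. Their median value was 18.4, their median width 1400 bp and their median fold change 1.14, from 0.58 to 1.64, with 18 over 2-fold. All 31 were also called with equal totals and by edgeR on the recovered reads, 18 also under cyclic loess and 3 also as deposited. With equal totals the median over all peaks was 0.26, which favours higher calls, so that overlap is no independent check.

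The peak past Cnot4, an E3 ubiquitin ligase of the CCR4-NOT complex that shortens poly(A) tails, lay at chr6:35017601-35018700, 3365 bp past the gene end. Its deposited value was 8.85 and 10.2 (hypoxia) and 21.7 and 21.0 (normoxia), from 25 and 30 reads against 58 and 63, and both normoxia values were above both hypoxia values before any scaling. Its fold change was 1.54 (SE 0.246, limma adjusted p = 0.000102), while the Cnot4 promoter peak was lower (-0.49, limma adjusted p = 0.00506). The peak past Zfp982, a zinc finger gene, overlapped the processed pseudogene Gm15951, where reads of near-identical copies may be misplaced. It was at 26.9 and 20.1 under hypoxia against 50.6 and 33.0 under normoxia, a fold change of 1.25 (SE 0.214, limma adjusted p = 0.000210).

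The peak past Tmprss11c, a transmembrane serine protease gene of epithelia, held an AP-1 match and was at 39.6 and 42.8 in hypoxia against 55.8 and 53.4 in normoxia, a fold change of 0.87 (SE 0.159, limma adjusted p = 0.000442). The peak past the predicted gene Gm4924 was at 14.5 and 12.2 in the hypoxia libraries against 21.7 and 25.03 in normoxia, a fold change of 1.21 (SE 0.230, limma adjusted p = 0.000596). The peak past Tra2a, a splicing regulator, was at 23.4 and 14.96 (hypoxia) and 28.5 and 33.0 (normoxia), a fold change of 1.14 (SE 0.220, limma adjusted p = 0.000711), and repeats made up 47.3% of it. As deposited the call was lost for Tmprss11c (0.40, limma adjusted p = 0.0975), Gm4924 (0.76, limma adjusted p = 0.0113) and Tra2a (0.68, limma adjusted p = 0.0151), while the fold change of all 5 peaks was positive under each scaling. The Zfp982 call was lost without Normoxia 1 (0.90, limma adjusted p = 0.0115). Picked after their values were seen, the splicing factor genes Sfpq (0.96) and Srsf3 (0.58) and the glycolytic enzyme gene Eno1 (0.63) also had a higher gene-end peak. For Srsf3 the deposited values overlapped, at 67.2 and 84.3 under hypoxia against 83.6 and 78.4 under normoxia, so its call rests on the scaling.

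**Figure D4:**
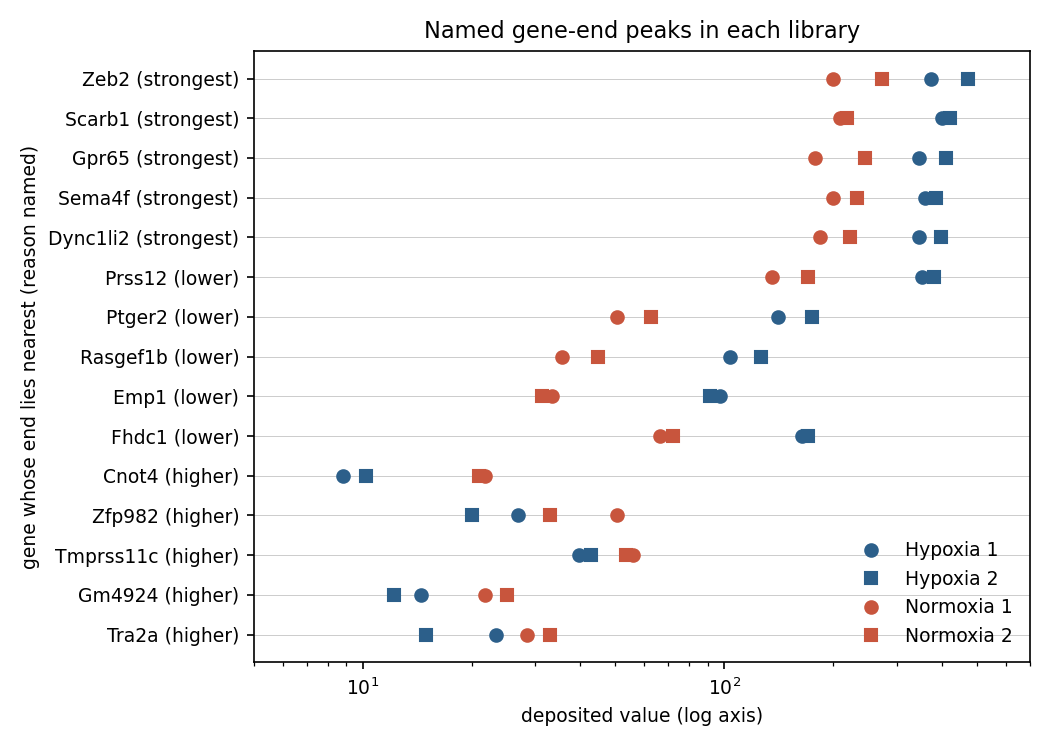
Deposited value (log axis) of 15 gene-end peaks in each of the 4 libraries: the 5 strongest, the 5 lower and the 5 higher ones with the lowest limma p among calls whose mean value reached 10 and whose groups were apart. Blue marks hypoxia and red normoxia; in all 15 peaks the groups are apart, with hypoxia to the right in the upper 10 and to the left in the lower 5.

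The 5 strongest gene-end peaks were all wide, from 4000 to 8600 bp, and lay past genes of unlike function. The Zeb2 peak (chr2:44975601-44980800), past a zinc finger repressor of epithelial genes, was at 373 and 472 in hypoxia against 200 and 273 in normoxia. Its fold change of -0.36 was not called (SE 0.107, limma adjusted p = 0.0190) and turned to 0.075 under cyclic loess. The peak past Scarb1, the HDL receptor, overlapped the lincRNA Gm32585, its start included. It was at 401 and 421 in the hypoxia libraries against 209 and 219 in normoxia. Its called fold change of -0.46 (SE 0.0969, limma adjusted p = 0.00154) shrank to -0.030 under cyclic loess.

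The Dync1li2 peak, past a light intermediate chain of the dynein motor, was at 345 and 397 (hypoxia) and 184 and 223 (normoxia), a called fold change of -0.39 (limma adjusted p = 0.00869) that turned to 0.032 under cyclic loess. The peaks past Gpr65, a proton-sensing receptor, and Sema4f, a transmembrane semaphorin, were not called. Their fold changes of -0.37 (limma adjusted p = 0.0177) and -0.31 (limma adjusted p = 0.0302) turned to 0.053 and 0.12 under cyclic loess. The Sema4f peak overlapped the lincRNA Gm45145, its start included. The Gpr65 peak overlapped the noncoding gene Gm47567, and a noncoding gene start lay 740 bp from it. In all 5 the groups were apart as deposited. On that scale the strongest of the 5 equal groups of gene-end peaks by value had a median fold change of -0.62.

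Among 115 genes of 7 lists (113 of them in the annotation), 25 had gene-end peaks, 32 in all, of which 2 were called lower and 0 higher, beside 2.23% and 1.17% of all gene-end peaks and 4.57% and 1.77% of the table. Their median fold change was -0.13, against 0.077 over all gene-end peaks. At these 25 genes the fold change of the strongest gene-end peak changed sign as deposited for 6 and with equal totals for 13. Of 12 adipogenic genes 6 had 7 peaks, with a median fold change of -0.22. Their median value was 54.6. The strongest of the 5 groups of gene-end peaks, from a mean value of 41.7, had a median fold change of -0.14, and other intergenic peaks of that range -0.21. Pparg, the master regulator of fat cell formation, had a peak 1702 bp past its end (chr6:115492101-115494600). It was at 207 and 234 under hypoxia against 96.0 and 105 under normoxia. As deposited the oxygen groups were far apart, with a fold change of -1.13. The strongest of the 5 groups of gene-end peaks had a median of -0.62 on that scale. After RLE scaling the Pparg fold change was -0.65 (SE 0.115, limma adjusted p = 0.000300). The call was lost with equal totals (-0.36, limma adjusted p = 0.0168) and under cyclic loess (-0.33, limma adjusted p = 0.0463).

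The other adipogenic genes were not called. The peak past Adipoq, which encodes adiponectin, was at 69.0 and 80.6 in hypoxia against 51.0 and 57.7 in normoxia, with a fold change of 0.020 that was -0.45 as deposited. Lpl, lipoprotein lipase, was at 60.2 and 64.9 against 45.4 and 53.4, with a fold change of 0.13 that was -0.34 as deposited. For Ebf1, Ebf2 and Zfp423, transcription factors of early fat precursors, the fold changes were -0.33, -0.22 and -0.27, and the last 2 turned to 0.043 and 0.015 with equal totals.

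Of 16 immediate early genes only Fosl2, a Fos-family subunit of AP-1, had a gene-end peak. It lay 4559 bp past the end, at 81.7 and 71.1 in the hypoxia libraries against 35.6 and 35.4 in normoxia, a called fold change of -0.61 (SE 0.159, limma adjusted p = 0.00855). The call was lost with equal totals (-0.33, limma adjusted p = 0.139), under cyclic loess (-0.48, limma adjusted p = 0.0545), with a pseudocount of 0.1 (limma adjusted p = 0.0143) and without Normoxia 2 (-0.54, limma adjusted p = 0.0289). Of 21 osteogenic genes 2 had a peak, both weak. The Runx2 peak, past the master regulator of bone formation, was at 4.95 and 5.10 (hypoxia) and 3.75 and 2.67 (normoxia), with a fold change of -0.15 that was 0.088 with equal totals. The peak past Bmp2, a bone morphogenetic protein, was at 4.25 and 6.46 against 3.37 and 6.01, with a fold change of 0.22 that was -0.18 as deposited. Neither was called, and both rest on under 20 reads per library.

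Of 15 hypoxia response genes 4 had a gene-end peak, 5 peaks in all with a median fold change of -0.10, and 0 were called. The growth factor gene Vegfa was at 28.0 and 27.5 under hypoxia against 17.6 and 19.4 under normoxia, with a fold change of -0.10 that was 0.17 with equal totals. For Ndrg1 and for Hk2, hexokinase 2, the fold changes were -0.12 and -0.062, turning to 0.15 and 0.22 with equal totals. P4ha1, a collagen prolyl hydroxylase, stood at 0.35, which was -0.12 as deposited.

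Of 14 annotated matrix genes 5 had 8 gene-end peaks, with 0 called and all 8 fold changes negative after RLE scaling (median -0.21, against 0.077 for all gene-end peaks). With equal totals those of Col5a1, Col6a2, Postn and Tnc turned to 0.12, 0.23, 0.24 and 0.21 for the strongest peak of each. That of Col6a1, a chain of collagen VI, was -0.44 and stayed negative. The Col5a1 peak was the widest of these, 10200 bp, at 139 and 124 in hypoxia against 88.1 and 79.4 in normoxia, with a fold change of -0.17 (limma adjusted p = 0.419). Postn and Tnc encode the matrix proteins periostin and tenascin-C.

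Of 18 stromal identity and signalling genes 7 had 9 gene-end peaks with a median fold change of -0.021, and 0 were called. The peak past Kitl, the stem cell factor that stromal cells show to blood stem cells, was at 7.79 and 7.82 in the hypoxia libraries against 11.6 and 9.68 in normoxia, a fold change of 0.83 (SE 0.296, limma adjusted p = 0.0538), while its promoter peak was lower (-0.65, limma adjusted p = 0.00293). The fold change was -0.31 at Prrx1, a homeobox gene of limb mesenchyme, and -0.23, -0.15 and -0.021 at the ligand genes Inhba, Wnt5a and Tgfb2. It was 0.28 at the adhesion gene Vcam1 and 0.067 at Pdgfra, whose product was used to sort the cells. With equal totals Inhba, Wnt5a and Tgfb2 turned to 0.052, 0.14 and 0.25, and as deposited Vcam1 and Pdgfra turned to -0.18 and -0.38. None of the 17 genes for 3′ end processing and termination had a gene-end peak of its own.

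Genes with the most gene-end peaks held mostly weak ones. The 5 past Itga1 had mean values from 0.699 to 29.2, and those past Arid1b, a subunit of the BAF chromatin remodeller, from 0.853 to 23.8. The peaks past Basp1, a membrane-associated signalling protein, ran from 0.255 to 42.0, those past Msrb3, a methionine sulfoxide reductase, from 1.57 to 6.27, and those past Plec, the cytoskeletal linker plectin, from 3.78 to 18.9. None of these 21 peaks was called. Peaks past one gene share a neighbourhood and are not independent.

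The 5 kb limit cut through a continuous series of peaks. Just inside it lay the peaks past Gm7694, Cdk12 and Zbtb16 at 4999, 4997 and 4997 bp, with mean values of 19.6, 6.09 and 6.46. Just outside lay those past Fkbp6, Syk and Zfp239 at 5004, 5009 and 5010 bp, with 12.1, 29.4 and 182. By kilobase, the gene-end peaks had median fold changes of 0.077, 0.084, 0.082, 0.092 and 0.033, with 12, 14, 15, 6 and 12 lower calls and 11, 9, 2, 5 and 4 higher calls. From 5 to 10 kb the median was 0.065, with 2.34% lower and 1.76% higher.

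Finally, the gene-end peak was set beside the promoter peak of the same gene, within 1 kb of a start site, for the 2027 genes with both. Promoter peaks had a median fold change of -0.34 and a median value of 103, against 0.076 and 18.3 for the gene ends. These medians are not at equal strength. After RLE scaling the strongest of the 5 groups of gene-end peaks, from a mean value of 41.7, had a median of -0.14. Promoters and gene ends were not compared at equal strength, and this holds also for the single promoters given above. Across genes the fold changes were weakly related (Pearson's r 0.10, Spearman's rho 0.12), and so were the levels (rho 0.12). Genes are not replicates, and both peaks come from the same 4 libraries. Of these promoters 541 (26.7%) were called lower and 4 higher. Where the gene end was called lower (51 genes), 17 promoters (33.3%) were too. Where it was called higher (25 genes), 4 promoters were lower and 0 higher.

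**Figure D5:**
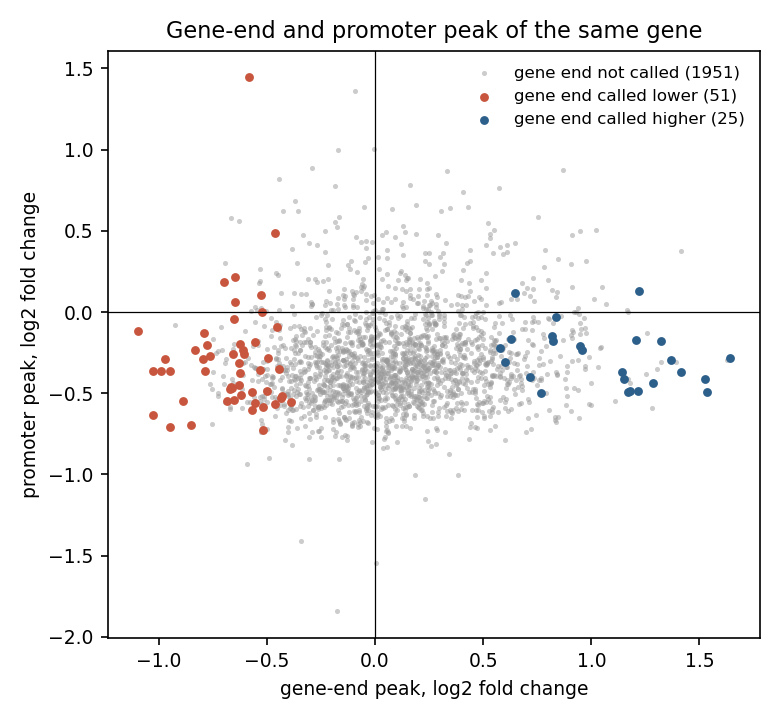
Each point is 1 of 2027 genes, with the log2 fold change (normoxia over hypoxia, RLE-scaled) of its gene-end peak on the x axis and of its promoter peak on the y axis; colours mark gene-end peaks called lower (51) or higher (25). The median promoter fold change was -0.36 where the gene end was called lower and -0.30 where it was called higher.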

How the data were processed

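ATAC-seq was measured in 4 libraries, Hypoxia 1 and 2 and Normoxia 1 and 2, grouped by the oxygen level in the labels. Per the study's methods and the labels, the authors aligned reads to mm10 with Bowtie2, removed duplicates with Picard and called peaks over both groups with chromstaR, and the deposited signal per peak and library came from that model. The authors call it RPKM, but it is not divided by width: in each library 100% of values were whole multiples of 1 step (tolerance 0.001 reads), which gave reads. Library totals, and shares of a library, also rest on an assumed scale constant that the values themselves do not give. The median gene-end peak held 48, 51, 36 and 42 reads in the 4 libraries in that order, so weak peaks rest on few reads. Whether these are fragments is not known, so no counting interval is given.

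Peaks were placed against GENCODE M21 and read from RefSeq's GRCm38 sequence. All 128055 peaks were tested with limma 3.58.1 in R 4.3.3 (lmFit, eBayes with trend and robust, two-sided) on log2(value + 1) of RLE-scaled values, Benjamini-Hochberg adjusted, FDR under 0.01. The design assumed this unit, and edgeR 4.0.16 (glmQLFit) on the recovered reads was an alternative. Functions were tested on simulated data. Matched comparisons used 10 bins of mean value by 5 of width. Motifs were searched in 300 bases around each peak's midpoint, which for narrow peaks extends past the peak. Percentages of bases in shared peaks used points every 100 bp.

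Named peaks were the 5 strongest, the 5 lower and 5 higher with the lowest p (mean value at least 10, no overlap), the strongest peak of each listed gene, the genes with most peaks (ties kept) and 3 on each side of the limit. One gene of the blood marker list is not reported here, and the counts and values given for that list leave it out. The members and lists were chosen with earlier results of these data known. The labels do not say that libraries of a group come from separate animals, while the study's methods call the experiments biologically independent, so p-values measure the spread between these libraries. The study describes a sorted population that was split between the oxygen levels. Which libraries share a split is not stated in the sources used here. Deviations of libraries with the same number were hardly correlated (0.011 over all peaks, 0.077 over gene-end peaks). With 2 libraries per group this cannot settle whether they are paired, and the main tests took them as unpaired. The alternatives were other scalings, a pseudocount of 0.1 or 5, a minimum of 5 on the mean value, the block, each library left out, other definitions of the peaks and other tools.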

Additional observations from a re-analysis of the deposited data

How the results depend on the processing

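Counts of gene-end peaks lower and higher in normoxia (59 and 31) were 464 and 3 as deposited, 11 and 191 with equal totals, 19 and 38 under cyclic loess, 136 and 130 at an FDR under 0.05, and 83 and 49 with a minimum mean value of 5. With edgeR they were 83 and 56 on recovered reads with RLE, 71 and 66 with TMM, and 41 and 6 on the deposited values. Without trend and robust estimation limma made 0 and 0 calls over the gene-end peaks and 0 over the table, with 158 lower and 310 higher at an unadjusted p under 0.05. With the replicate block the counts were 96 and 73, with the median fold change unchanged at 0.077. Whether libraries with the same number share a split of cells is not known, so the block was kept as an alternative fit. Over the whole table, calls in either direction numbered 8118 in the main fit, 31230 as deposited, 9829 with equal totals and 3500 under cyclic loess. They numbered 9939 with a minimum mean value of 5 and 12380 with the block. With edgeR they numbered 10553 with RLE, 10437 with TMM and 5025 on the deposited values. Leaving out each library gave 0 to 86 lower and 0 to 23 higher. Both were 0 without Hypoxia 1 (153 and 261 at an unadjusted p under 0.05) and without Hypoxia 2 (162 and 200), where limma made 0 calls over the table and edgeR was not run. The count of higher peaks was 20 without Normoxia 2. The lone library of a group is then assumed to vary like the others.

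The median fold change of 0.077 turned to -0.36 as deposited and ranged from 0.038 to 0.090 with a library left out. The difference from matched peaks (-0.015) turned to 0.012 with membership by midpoint, 0.016 with GC strata, 0.0088 against peaks within 50 kb of a gene end and 0.0071 with 1 peak per gene end, and ran from -0.042 to 0.013 with a library left out. The cause was not tested. The other definitions kept both counts within 1.5 times: midpoint 72 and 43, all transcripts 40 and 26, and outside RefSeq gene bodies (chosen after seeing the data) 58 and 29.

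Among named peaks, signs turned as deposited at Bmp2 (-0.18), Adipoq (-0.45), Lpl (-0.34), P4ha1 (-0.12), Pdgfra (-0.38) and Vcam1 (-0.18). With equal totals they turned at Runx2 (0.088), Ebf2 (0.043), Zfp423 (0.015), Vegfa (0.17), Ndrg1 (0.15), Hk2 (0.22), Col5a1 (0.12), Col6a2 (0.23), Postn (0.24), Tnc (0.21), Tgfb2 (0.25), Inhba (0.052) and Wnt5a (0.14). Under cyclic loess they turned at Zeb2 (0.075), Gpr65 (0.053), Sema4f (0.12), Dync1li2 (0.032), Col5a1 (0.093), Tnc (0.0995), Wnt5a (0.082) and Pdgfra (-0.080). With a library left out, the sign turned within the range at Runx2 (-0.39 to 0.10), Bmp2 (-0.074 to 0.52), Adipoq (-0.043 to 0.067), Ebf2 (-0.50 to 0.049), Ndrg1 (-0.31 to 0.081), Hk2 (-0.27 to 0.16), Col6a2 (-0.19 to 0.092), Postn (-0.18 to 0.099), Tnc (-0.29 to 0.15), Pdgfra (-0.16 to 0.30) and Tgfb2 (-0.29 to 0.25), none of them called. The block also brought Zeb2 and Gpr65 past the threshold (limma adjusted p = 0.00635 and 0.00665).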

Other observations

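Of the gene-end peaks, 42 (1.59%) overlapped an annotated pseudogene. Their median mean value was 34.4, against 15.4 for the other 2602 gene-end peaks. Their median fold change was -0.16 after RLE scaling and -0.17 under cyclic loess, against 0.082 and 0.041, and 5 (11.9%) were called lower and 2 (4.76%) higher by limma at an FDR under 0.01, beside 4.57% and 1.77% of all peaks of the table. Other intergenic peaks over pseudogenes (562) had a median fold change of 0.0078 after RLE scaling and -0.047 under cyclic loess, with 34 (6.05%) lower and 11 (1.96%) higher. Their median mean value was 16.6, so the shares are not at equal strength. The difference was not tested, and reads of near-identical copies can be placed at the wrong copy.

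Gene-end peaks with a GC box (137) had a median fold change of -0.13 and those without of 0.086, and other intergenic peaks with one had -0.083. The 43 gene-end peaks with a CTCF core match had a median of 0.092 after RLE scaling and -0.062 under cyclic loess, with 2 called lower (4.65%, near the 4.57% of all peaks), past Cmtm6 (-0.49) and Reep3 (-0.53), and 0 higher. Gene-end peaks that overlapped any RefSeq protein-coding gene body (149) had a median of 0.13, with 1 (0.671%) lower and 2 (1.34%) higher. Whether the RefSeq gene is the one whose end the peak follows was not checked. These differences were not tested.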
